A study of Mus musculus with 39 samples.

Results

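The cathepsins and cystatins are a set of lysosomal proteases and protease inhibitors, and 10 of their genes were followed here in microglial RNA from WT and 5XFAD mice kept in normoxia (NX) or chronic intermittent hypoxia (CIH). The 10 genes were picked by symbol from the gene count tables: 8 cathepsins (Ctsd, Ctsb, Ctsl, Ctss, Ctsc, Ctsh, Ctsz and Ctsa) and 2 cystatins (Cst7 and Cst3). They are 10 of 46333 genes in the female table and 10 of 54532 in the male table, and all 10 were present in both. The series held 39 libraries, with 5 in each group of 1 sex, 1 genotype and 1 treatment, except for 4 from female WT NX mice. The mice came from a cross of C57BL/6J females with 5XFAD males of a B6SJL line. The 5XFAD line is a transgenic model of amyloid deposition whose transgenes are driven by the neuronal Thy1 promoter, so the microglia themselves are not the intended site of transgene expression. CIH mice breathed air that alternated between 6.5% and 21% O2 over 90 s for 8 h a day in their sleep phase, as the series' design text gives it, from the age of 4 months, and NX mice breathed 21% O2 throughout with the same noise and airflow. Female mice were 10 months old at harvest and male mice 8 months old, so sex cannot be told apart from age, length of exposure and table, and values of the sexes are only set side by side. Cells were taken from the cerebrum with CD11b beads, which also bind other myeloid cells.

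Cathepsins cut proteins inside lysosomes and endosomes. Ctsd is an aspartic protease, Ctsa a serine carboxypeptidase, and the others are cysteine proteases of the papain family. Cystatins bind and block the papain-family enzymes: Cst3 encodes cystatin C, which is secreted, and Cst7 encodes cystatin F, which reaches the lysosomes of immune cells and is widely used as a marker of the microglial state found around amyloid plaques.

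Across the 4 comparisons of 5XFAD with WT, 5 genes rose each time: Cst7, which was low in WT mice, and Ctsd, Ctsb, Ctsz and Ctsa, which were abundant in WT mice already. Of all genes tested, 7.26% to 26.2% rose in any 1 of these comparisons, and the share that rose in all 4 is not given. Ctsd, for example, was 3.26-fold higher in female NX, 3.50-fold in female CIH, 3.19-fold in male NX and 5.37-fold in male CIH (edgeR). Ctsl rose in 3 of the 4, Ctss, Ctsh and Ctsc rose in CIH, and Cst3 rose in male CIH. In female NX the calls of these 5 were lost for all or all but Cst7 when any 1 library other than 5XFAD NX 4 was left out. CIH against NX gave calls among the members in male WT mice, where 9 of the genes fell and 15% of all genes did, and in no other group, and all 9 calls were lost with the 4 male groups in a single fit.

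Total counts ran from 14731683 to 25906121 in the female libraries and from 13457293 to 23095627 in the male ones. The summed CPM (counts scaled to a common library total) of 10 microglial markers lay between 25930 and 40003 in every library, against at most 1393 for 10 neutrophil markers, 1005 for 7 astrocyte, 585 for 6 oligodendrocyte, 336 for 7 border macrophage, 273 for 6 endothelial, 41.1 for 6 neuron and 15.8 for 6 T and NK cell markers. The median sums of astrocyte, oligodendrocyte, endothelial and T and NK cell markers were higher in 5XFAD in all 4 genotype comparisons. In male NX they were 152, 225, 88.6 and 2.66 in WT and 419, 403, 172 and 5.70 in 5XFAD. The T and NK sum had its highest median in male 5XFAD CIH, at 14.7 against 1.90 in WT CIH. The library labelled female 5XFAD NX 4 went against its label. Its median distance, in log2 CPM over all genes tested, was 150.1 to its own group, 108.5 to WT NX and 89.6 to WT CIH, and the female NX genotype differences, the counts and the correlations below are given with and without it. The male 5XFAD NX group was spread out. Replicates 4 and 5 had distances of 151.6 and 149.7 to their own group, 124.3 and 122.8 to 5XFAD CIH and 123.3 and 117.0 to WT CIH. Replicates 1 to 3 also lay nearer to 5XFAD CIH (116.0 to 133.2) than to their own group (129.2 to 143.1), but far from WT CIH (173.0 to 182.5). Because these are bulk samples, fewer cells of a type and less RNA per cell cannot be told apart.

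The DNA just upstream of the start site is shown for Cst7, the member with the largest difference between genotypes, and for Ctsc, a cathepsin with one of the smallest. Both stretches of 250 bases come from RefSeq promoters on GRCm38.p6, where 8 of the 10 genes had an entry, and neither overlaps an exon in GENCODE vM21. That of Cst7 lies at chr2:150570165-150570414 on the plus strand and that of Ctsc at chr7:88277835-88278084 on the plus strand. The capitals in Ctsc mark ACTTCCTC, the reverse complement of GAGGAAGT, a purine-rich word of the kind bound by Ets factors such as Spi1. It was the only exact match to that word among the 9 promoters of the members. Near matches were not searched for, and the Cst7 stretch holds aaggaagt, which differs from the word in its first base alone.
Cst7: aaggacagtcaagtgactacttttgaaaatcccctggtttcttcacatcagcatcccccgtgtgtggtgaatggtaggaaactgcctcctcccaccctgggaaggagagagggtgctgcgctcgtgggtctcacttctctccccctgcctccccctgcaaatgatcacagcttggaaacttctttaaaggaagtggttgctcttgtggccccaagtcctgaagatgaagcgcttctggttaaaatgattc
Ctsc: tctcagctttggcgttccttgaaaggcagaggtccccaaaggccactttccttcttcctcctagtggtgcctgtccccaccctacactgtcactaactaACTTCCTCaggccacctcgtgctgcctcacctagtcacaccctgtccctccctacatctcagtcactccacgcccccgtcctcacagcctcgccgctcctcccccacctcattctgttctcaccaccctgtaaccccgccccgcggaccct

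The E-box word TCACGTGA, the kind of site read by the lysosomal regulators Tfeb, Tfe3 and Mitf, was found upstream of 2 members, Ctsd and Ctsa, and is shown in capitals in 30 bases of each. In Ctsd it began 99 bases before the start (chr7:142387908-142387937, minus strand) and in Ctsa 13 bases before the second of its listed starts (chr2:164833749-164833778, plus strand). GENCODE vM21 places both sites within a UTR of a longer transcript of the same gene.
Ctsd: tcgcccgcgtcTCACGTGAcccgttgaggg
Ctsa: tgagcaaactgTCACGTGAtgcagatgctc
The word is present in 0.785% of the 32851 promoters in the table. Its core CACGTG, which lies inside it, was in 3 member promoters (Ctsa, Ctsd and Ctsl) and in 6.02% of all, and the shorter ACGTG, inside both, was in the same 3 and in 16.6% of all. TGANTCA, the AP-1 word, was in none of the 9 member promoters and in 6.75% of all, and GAGGAAGT was in 2.44% of all. All words were read on both strands. No promoter entry was used for Ctsb (chr14:63122462-63145923) or Ctsh (chr9:90054152-90076089). The GC content of the windows ran from 44.8% in Ctss to 67.2% in Ctsd, with Cst7 at 51.6%, Ctsc at 60.4% and a median of 52.4% over the table.

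Per length of transcript, the 10 genes covered a wide range in WT microglia. Cst3 had the highest FPKM (fragments scaled by transcript length and library total) of the members in every group, at 16907 ± 2320 (SD, n = 4) in female WT NX, where it ranked 1 of 46333 genes, and at 17738 ± 2674 (SD, n = 5) in male WT NX, where it ranked 2 of 54532. Ctsd and Ctss followed. In female WT NX, Ctsd stood at 4439 ± 449 FPKM and Ctss at 3972 ± 333, the genes ranked 2 and 3 of the whole table. The lower part of the order was Ctsb (925), Ctsz (816), Ctsa (366), Ctsh (345), Ctsl (344), Ctsc (156) and Cst7 (14.9 ± 2.62) in the same mice. Ctsh and Ctsl did not differ beyond their SDs of 26.4 and 112, and Ctsa lay just above them with an SD of 17.5. Cst7 was thus the member with the lowest level in WT mice, at rank 4887 in female WT NX and 2249 in male WT NX. In 5XFAD mice it stood above Ctsl, Ctsa, Ctsh and Ctsc, at 1718 ± 245 FPKM and rank 23 in female CIH and 3239 ± 1242 and rank 18 in male CIH (SD, n = 5 each), while Ctsc became the lowest of the 10, at 151 ± 12.3 and 91.3 ± 2.94. The 2 tables give different gene lengths and scale FPKM differently, so FPKM is compared only within a table.

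From here levels are CPM scaled by TMM within a sex, listed in the order of the replicate numbers, and differences are log2 fold changes (log2FC) with their SE from edgeR's quasi-likelihood test, with FDR as the adjusted p over all genes tested. A gene rose or fell if its FDR was below 0.05, and was called differentially expressed (a DEG) if its log2FC was also above 1 or below -1, the thresholds of the study.

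**Figure D1:**
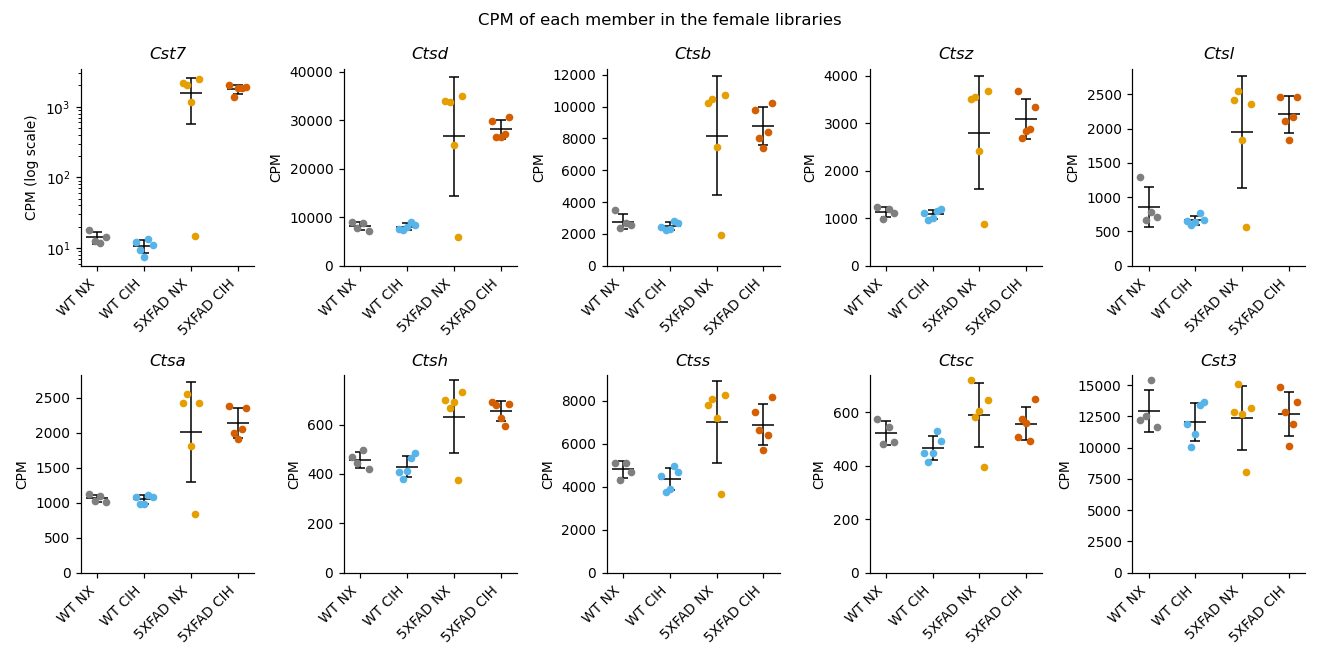
CPM of each of the 10 genes in every female library (y axis, one panel a gene, each with its own scale, a log scale for Cst7) by group (x axis), with black bars for the mean ± SD; n = 4 for WT NX and 5 for the other groups. One 5XFAD NX point, replicate 4, sits at the WT level or below it in every panel, as for Cst7 at 14.9 CPM beside 1168 to 2488 in the other 4.

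**Figure D2:**
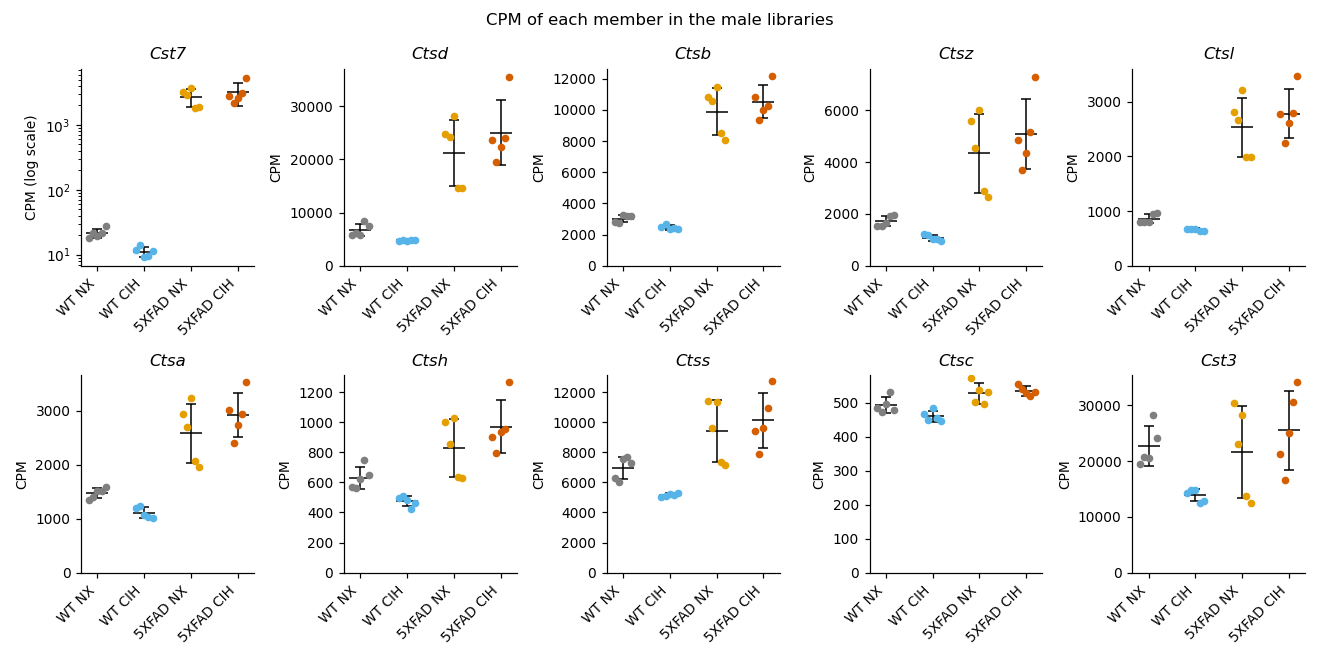
The same for the male libraries, with 5 points in each group. WT CIH points lie below all WT NX points for 9 of the genes, and 5XFAD NX replicates 4 and 5 are the lowest 2 of their group in 9 of the 10 panels.

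Ctsd (chr7:142375911-142388038, minus strand), the main aspartic protease of the lysosome, was at 8918, 7811, 8858 and 7192 CPM in female WT NX and at 33874, 33708, 24851, 5918 and 35038 in female 5XFAD NX. Under CIH it was at 7470, 7366, 8044, 8935 and 8416 in female WT and at 29768, 26498, 26526, 27081 and 30747 in female 5XFAD. All female 5XFAD libraries but replicate 4 of NX were above all WT libraries. The log2FC of 5XFAD against WT was 1.70 (SE 0.44, FDR 0.0360, edgeR) in NX and 1.81 (SE 0.08, FDR 1.51e-09) in CIH. Male WT mice had 5765, 6234, 5763, 8467 and 7408 CPM in NX and 4739, 4859, 4591, 4809 and 4779 in CIH. Male 5XFAD mice had 24698, 24200, 28174, 14639 and 14697 CPM in NX and 23615, 19520, 22298, 24096 and 35546 in CIH, so the genotypes did not overlap under either treatment. Ctsd rose by a log2FC of 1.68 (SE 0.20, FDR 9.20e-05) in male NX and 2.42 (SE 0.14, FDR 7.72e-09) in male CIH.

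Ctsb (chr14:63122462-63145923, plus strand) encodes an abundant cysteine protease that cuts both within chains and at their ends. Its CPM was 3476, 2367, 2679 and 2567 in female WT NX, and 10205, 10507, 7448, 1951 and 10752 in female 5XFAD NX. The CIH females had 2449, 2229, 2318, 2811 and 2677 in WT and 9784, 8034, 7395, 8429 and 10203 in 5XFAD, with no overlap. Ctsb was higher in 5XFAD by 1.56 (SE 0.41, FDR 0.0378) in female NX and by 1.82 (SE 0.10, FDR 1.30e-08) in female CIH on the log2 scale. In males the 5 WT NX values were 2778, 2726, 3254, 3192 and 3173, and the 5 WT CIH values 2490, 2667, 2358, 2403 and 2332. The 5XFAD males reached 10856, 10578, 11480, 8501 and 8044 in NX and 10853, 9356, 9965, 10224 and 12157 in CIH, all above every WT male. The log2FC was 1.72 (SE 0.13, FDR 1.41e-06) and 2.13 (SE 0.09, FDR 5.94e-10).

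Ctsl (chr13:64359337-64370890, minus strand), an endopeptidase of the same family, was between 667 and 1287 CPM in female WT NX and between 599 and 767 in female WT CIH. Its 5XFAD values were 564 to 2550 in female NX, with replicate 4 the lowest, and 1834 to 2465 in female CIH. The female difference missed the threshold in NX (log2FC 1.18, SE 0.38, FDR 0.0610) and passed it in CIH (1.74, SE 0.09, FDR 9.66e-09). Ctsl ran from 792 to 958 in male WT NX, from 628 to 679 in male WT CIH, from 1985 to 3219 in male 5XFAD NX, with from 2243 to 3467 in male 5XFAD CIH. It rose in male 5XFAD by 1.57 (SE 0.15, FDR 1.37e-05) in NX and by 2.11 (SE 0.11, FDR 2.91e-09) in CIH.

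Ctss (chr3:95526786-95556403, plus strand) encodes a cysteine protease that stays active outside acid compartments and trims the invariant chain Cd74. Female WT NX libraries held 5092, 4306, 5129 and 4710 CPM and 5XFAD NX libraries 7813, 8113, 7212, 3678 and 8265. Female WT CIH held 4520, 3749, 3878, 4968 and 4710, against 7467, 6651, 5736, 6397 and 8204 in 5XFAD CIH. The gap between genotypes was smaller than that of Ctsd or Ctsb: log2FC was 0.56 (SE 0.22, FDR 0.105) in female NX and 0.66 (SE 0.10, FDR 1.32e-04) in female CIH. In males Ctss was at 6307, 6041, 7528, 7669 and 7279 in WT NX and at 11442, 9603, 11360, 7384 and 7183 in 5XFAD NX, where replicates 4 and 5 fell among the WT values (log2FC 0.45, SE 0.15, FDR 0.0621). Male WT CIH had 5040, 5109, 5250, 5185 and 5305 and male 5XFAD CIH 9399, 7900, 9615, 10968 and 12722, which did not overlap (log2FC 1.00, SE 0.11, FDR 5.50e-06).

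Ctsz (chr2:174427493-174439039, minus strand), a carboxypeptidase, was at 1237, 983, 1199 and 1105 CPM in female WT NX and at 3500, 3545, 2407, 876 and 3682 in female 5XFAD NX. In female CIH it was at 1104, 969, 1006, 1157 and 1185 in WT and at 3683, 2688, 2837, 2883 and 3340 in 5XFAD. Outside replicate 4 of 5XFAD NX, every female 5XFAD value was above every WT value, and log2FC was 1.31 (SE 0.34, FDR 0.0365) in NX and 1.51 (SE 0.10, FDR 4.71e-08) in CIH. Males had 1547, 1532, 1667, 1902 and 1956 in WT NX, 1219, 1193, 1026, 1016 and 953 in WT CIH, 5574, 4538, 6005, 2893 and 2669 in 5XFAD NX, and 4860, 3700, 4364, 5146 and 7287 in 5XFAD CIH. Ctsz rose in male 5XFAD by 1.35 (SE 0.22, FDR 8.70e-04) in NX and by 2.26 (SE 0.16, FDR 4.91e-08) in CIH.

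Ctsh (chr9:90054152-90076089, plus strand), an aminopeptidase, lay between 381 and 497 CPM in the female WT libraries, between 596 and 690 in female 5XFAD CIH and between 375 and 730 in female 5XFAD NX. Its log2FC was 0.48 (SE 0.16, FDR 0.0627) in female NX and 0.61 (SE 0.07, FDR 1.17e-05) in female CIH. Male values were 564 to 747 in WT NX, 423 to 512 in WT CIH, 628 to 1030 in 5XFAD NX, with 796 to 1269 in 5XFAD CIH. The male difference was 0.41 (SE 0.16, FDR 0.102) in NX and 1.06 (SE 0.12, FDR 4.12e-06) in CIH.

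Ctsc (chr7:88278085-88310888, plus strand), a dipeptidyl peptidase that activates granule proteases and is a known target of cystatin F, moved least of the cathepsins. It was at 575, 480, 544 and 490 CPM in female WT NX, 721, 582, 604, 395 and 645 in female 5XFAD NX, 448, 415, 446, 529 and 492 in female WT CIH and 507.4, 576.4, 558.1, 493.5 and 650.0 in female 5XFAD CIH. The log2FC was 0.19 (SE 0.13, FDR 0.335) in NX and 0.26 (SE 0.08, FDR 0.0132) in CIH. Male Ctsc stood at 485, 474, 496, 533 and 478 in WT NX and 574, 503, 537, 496 and 531 in 5XFAD NX, and at 467, 448, 484, 455 and 445 in WT CIH and 555, 539, 528, 520 and 530 in 5XFAD CIH. Only the CIH groups of males were free of overlap. Its log2FC was 0.11 (SE 0.09, FDR 0.477) in male NX and 0.25 (SE 0.08, FDR 0.0159) in male CIH. Both CIH calls were lost when libraries were scaled by their totals alone, with Ctsc at FDR 0.447 in females and at a log2FC of -0.13 (FDR 0.216) in males, a scaling that moved the median of all genes to -0.21 and -0.43.

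Ctsa (chr2:164832873-164841032, plus strand), which encodes the carboxypeptidase that also protects the lysosomal enzymes of Glb1 and Neu1, ranged from 983 to 1124 CPM over the female WT libraries, from 845 to 2554 in female 5XFAD NX and from 1917 to 2383 in female 5XFAD CIH. It rose in female 5XFAD by 0.93 (SE 0.26, FDR 0.0440) in NX and by 1.04 (SE 0.08, FDR 1.48e-07) in CIH. Male Ctsa ranged from 1347 to 1592 in WT NX, 1012 to 1226 in WT CIH, 1951 to 3232 in 5XFAD NX, with 2394 to 3524 in 5XFAD CIH. The genotypes of the males did not overlap, and log2FC was 0.82 (SE 0.14, FDR 0.00163) in NX and 1.43 (SE 0.11, FDR 1.11e-07) in CIH.

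Cst7 (chr2:150570415-150578944, plus strand) showed the widest gap of the 10 genes. It was at 17.7, 12.5, 11.9 and 14.4 CPM in female WT NX and at 2204, 2056, 1168, 14.9 and 2488 in female 5XFAD NX, so replicate 4 was at the WT level and the other 4 were far above it. Female CIH mice had 12.03, 9.41, 7.51, 13.52 and 11.14 in WT and 2015, 1354, 1829, 1864 and 1892 in 5XFAD. The log2FC was 6.80 (SE 1.15, FDR 0.0162), or 111-fold, in NX and 7.39 (SE 0.17, FDR 1.97e-11), or 168-fold, in CIH. In males Cst7 was at 17.8, 21.4, 19.6, 21.3 and 27.1 in WT NX and 11.63, 13.99, 9.31, 9.52 and 11.29 in WT CIH. The male 5XFAD libraries held 3240, 2925, 3718, 1844 and 1869 in NX and 2829, 2191, 2570, 3154 and 5389 in CIH. Those genotypes were separated by 7.001 (SE 0.26, FDR 2.80e-09), or 128-fold, in NX and by 8.20 (SE 0.27, FDR 3.21e-11), or 295-fold, in CIH.

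Cst3 (chr2:148871722-148875692, minus strand), the other cystatin, did not follow Cst7. Female values were 12226, 12488, 15397 and 11681 CPM in WT NX, 12867, 15073, 12676, 8079 and 13162 in 5XFAD NX, 11892, 10057, 11087, 13392 and 13640 in WT CIH and 14853, 12826, 10153, 11917 and 13668 in 5XFAD CIH. The groups overlapped throughout, with a log2FC of -0.05 (SE 0.21, FDR 0.888) in NX and 0.08 (SE 0.11, FDR 0.550) in CIH. Male Cst3 was at 19475, 20782, 20605, 28306 and 24088 in WT NX and at 30380, 23083, 28326, 13812 and 12413 in 5XFAD NX, a group that fell apart into replicates 1 to 3 at or above most WT values and replicates 4 and 5 below all of them (log2FC -0.05, SE 0.24, FDR 0.919). In male CIH it was at 14180, 14794, 14778, 12550 and 12890 in WT and 21177, 16612, 25078, 30630 and 34235 in 5XFAD, with a log2FC of 0.91 (SE 0.16, FDR 2.59e-04).

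The comparison of genotypes asked what amyloid pathology did to these genes under each treatment. In female NX 5 of the 10 genes rose in 5XFAD (Cst7, Ctsd, Ctsb, Ctsz and Ctsa), where 7.26% of all genes tested rose, and 4 were higher DEGs, where 4.4% of all were. The median log2FC of the members was 1.06, against -0.02 over all genes. None of the 10 was free of overlap, where 2.12% of all genes had every 5XFAD library above every WT library. The library labelled 5XFAD NX 4 was the only one to overlap for 9 of the genes, while Cst3 overlapped with or without it. Without it 9 genes rose, where 21.8% of all did, with Cst3 the exception (log2FC 0.04, FDR 0.817), and 6 were DEGs, where 7.16% of all were. The log2FC was then 7.11 for Cst7, 1.95 for Ctsd, 1.80 for Ctsb, 1.52 for Ctsz, 1.40 for Ctsl, 1.10 for Ctsa, 0.69 for Ctss, 0.60 for Ctsh and 0.27 for Ctsc (FDR 0.0347), with a median of 1.25. The calls were otherwise easily lost. Leaving out any other single library of female 5XFAD NX (1, 2, 3 or 5), or WT NX 1 or 2, left only Cst7 past the threshold. Leaving out WT NX 3 or WT NX 4 left none, with Cst7 at FDR 0.0643 and 0.0534. Of all genes tested, 43 to 933 passed in these fits, against 2013 with all libraries.

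In female CIH 9 of the 10 rose in 5XFAD, where 26.2% of all genes rose, and 6 were DEGs (Cst7, Ctsb, Ctsd, Ctsl, Ctsz and Ctsa), where 8.83% of all were. The genotypes did not overlap for 8 genes, where 18.9% of all genes were higher in 5XFAD with no overlap, and Cst3 was the one that missed the threshold. The median log2FC was 1.28, against -0.02 over all genes.

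Among NX males 6 genes rose in 5XFAD (Cst7, Ctsb, Ctsd, Ctsl, Ctsz and Ctsa), where 10.4% of all did, and 5 were DEGs, where 5.94% of all were. The same 6 did not overlap between genotypes, where 8.39% of all genes were higher with no overlap, and the median log2FC was 1.08, against 0.02 over all genes. Without 5XFAD NX 4 (11% of all genes rising), or without 5XFAD NX 5 (11.5%), Ctsh and Ctss rose as well. With both left out, a choice made after seeing the data, 8 genes rose, where 17.9% of all did, 6 were DEGs, where 7.96% of all were, and the median was 1.34, with Ctss at 0.65 (FDR 1.30e-04), Ctsh at 0.62 (FDR 3.48e-04) and Cst3 at 0.28 (FDR 0.0868).

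Among CIH males all 10 rose, where 25.3% of all genes rose, and none overlapped, where 18.6% of all genes were higher with no overlap. DEGs made up 7 of the 10 (Cst7, Ctsd, Ctsz, Ctsb, Ctsl, Ctsa and Ctsh), where 11.8% of all genes were higher DEGs, and the median log2FC was 1.77, against -0.06 over all genes.

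**Figure D3:**
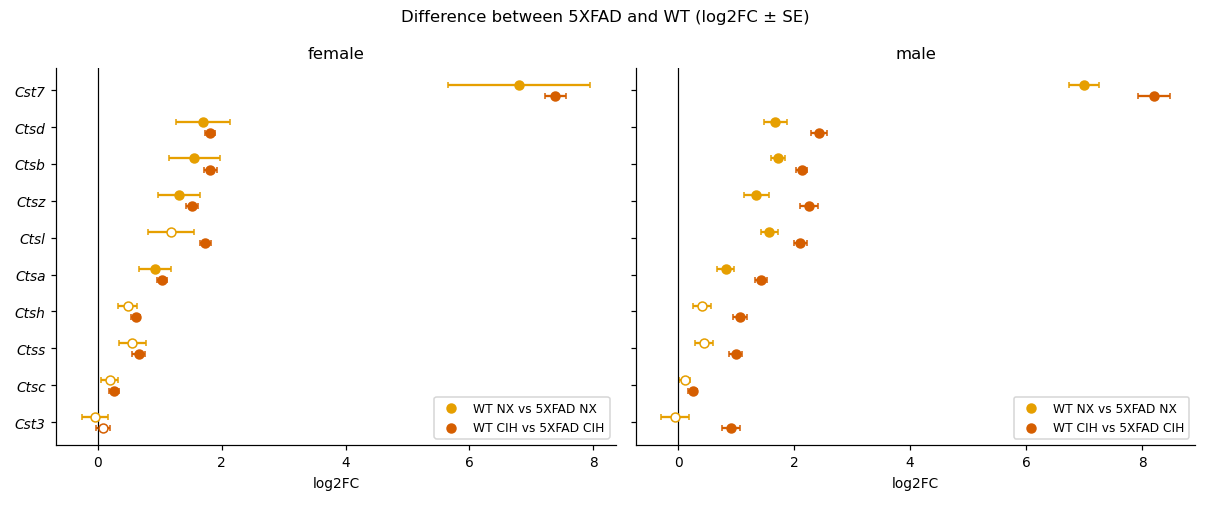
Log2FC of 5XFAD against WT (x axis) with SE bars for each of the 10 genes (y axis), in females and males under NX and CIH, with filled points for an FDR below 0.05 and open points for the rest. Cst7 stands apart at 6.80 to 8.20, Ctsd, Ctsb, Ctsz and Ctsl lie between 1.18 and 2.42, and Ctsc and, outside male CIH, Cst3 lie near 0.

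The comparison of treatments in WT mice asked what CIH did without amyloid. In male WT 9 of the 10 genes fell under CIH, where 15% of all genes tested fell, and for the same 9 every CIH library was below every NX library, where 8.43% of all genes were so separated. None was a DEG, where 0.881% of all genes were lower DEGs. From the largest change, log2FC was -0.95 for Cst7 (SE 0.15, FDR 4.44e-04), -0.72 for Cst3 (SE 0.09, FDR 2.66e-04) and -0.68 for Ctsz (SE 0.09, FDR 2.72e-04). It was -0.51 for Ctsd, -0.44 for Ctss, -0.42 for both Ctsh and Ctsa, -0.40 for Ctsl and -0.32 for Ctsb, all at FDR 0.00508 or lower. Ctsc was the exception (log2FC -0.11, SE 0.07, FDR 0.240), and the median of the 10 was -0.43, against -0.01 over all genes. With all 4 male groups in a single fit 0% of all genes passed, and the 10 members were at FDR 0.0568 to 0.291, 9 of them with an unadjusted p below 0.05, as for 29.6% of all genes, while their median log2FC was again -0.43. Other markers moved with this comparison. Of 10 neutrophil markers 7 fell, with a summed CPM of 251 to 1322 in WT NX and 116 to 351 in WT CIH, and of 10 microglial markers 5 fell (Tmem119, C1qa, Itgam, Aif1 and Fcrls), with a summed CPM of 37604 to 40003 in WT NX and 30664 to 35849 in WT CIH. None of these markers was at 0 in a whole group, and their part in the result was not tested.

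In female WT mice none of the 10 passed for CIH against NX, where 0% of all genes did (edgeR, with 565 genes at an unadjusted p below 0.05, and DESeq2 calling 1 gene). Cst7 had a log2FC of -0.37 (SE 0.16) and Ctsl one of -0.34, and the lowest FDR of the 10 was 0.960. The other members lay between -0.13 and 0.01.

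The comparison of treatments in 5XFAD mice gave no call for any member in either sex. In female 5XFAD 0% of all genes passed (edgeR, 470 genes at an unadjusted p below 0.05, DESeq2 0 genes), and 8 of the 10 log2FC were positive, but none was without the library labelled 5XFAD NX 4. In male 5XFAD 0% of all genes passed (473 genes at an unadjusted p below 0.05, DESeq2 1 gene). All 10 log2FC were positive there, between 0.02 for Ctsc and 0.24 for Cst3 and Cst7, and 1 of 10 was positive without 5XFAD NX 4 and 5.

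**Figure D4:**
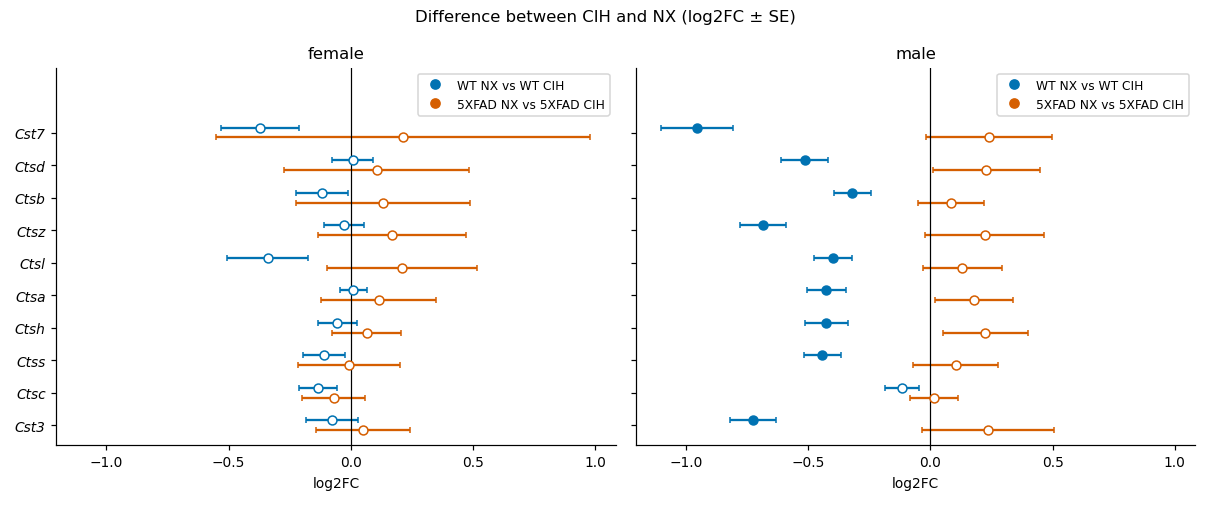
Log2FC of CIH against NX (x axis) with SE bars for each of the 10 genes (y axis), for WT and 5XFAD mice of each sex, with filled points for an FDR below 0.05 and open points for the rest. The filled points are those of male WT mice, from -0.95 for Cst7 to -0.32 for Ctsb, and every point of the other groups is open.

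The interaction term tested whether the genotype difference under CIH departed from that under NX. In males it was positive for all 10 genes, from 1.20 for Cst7, 0.96 for Cst3, 0.90 for Ctsz and 0.74 for Ctsd to 0.13 for Ctsc. No gene passed, as for 0% of all genes, with the members at FDR 0.117 to 0.462. An unadjusted p below 0.05 was reached by 9 of the 10 and by 24.4% of all genes. DESeq2 passed 9 of the members on FDR, where it passed 1017 genes or 6.43% of all, and edgeR passed 5 of the members without male 5XFAD NX 1, where 6.05% of all genes passed. Leaving out 5XFAD NX 4 and 5 gave a median of 0.41, 8 members with an unadjusted p below 0.05, as for 10.4% of all genes, and none past the threshold, against a median of 0.62 with all libraries. The male terms of 10 genes that respond to cell isolation, such as Fos and Atf3, were also all positive. Their median was 0.69, against -0.04 over all genes, and 0.67 for CIH against NX in male 5XFAD, with no gene past the threshold in either. Their part in the result was not tested. In females 0% of all genes and no member passed (589 genes at an unadjusted p below 0.05, DESeq2 0 genes). All 10 female interaction terms were positive, from 0.05 to 0.57, and 4 were without the library labelled 5XFAD NX 4.

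The share of all counts taken by the 10 members had a median of 3.34% in female WT NX, 3.24% in WT CIH, 6.51% in 5XFAD NX (lowest 2.88%, the library labelled replicate 4), with 6.25% in 5XFAD CIH. In males it was 4.47%, 3.42%, 7.51% and 7.37% in the same order. In NX the gap between genotypes lay mostly in the cathepsins, whose median share went from 2.05% in female WT NX to 5.23% in 5XFAD NX and from 2.29% to 5.12% in males. The cystatins stood at 1.27% and 1.32% in females and 2.26% and 2.39% in males. Cst3 made up most of that, at 1.27% and 1.15% in females and 2.26% and 2.12% in males, so the pooled share hides the rise of Cst7. Under CIH the cathepsins had 1.99% in female WT and 4.90% in 5XFAD, and 1.81% and 5.07% in males. The cystatin shares then overlapped in females (medians 1.25% and 1.35%) but not in males, where they ran from 1.44% to 1.65% in WT and from 1.82% to 3.10% in 5XFAD. Ctsd alone made up a median of 0.859% of female WT NX counts and 2.87% of 5XFAD NX counts. The ratio of Ctsd to Cst3 counts had a median of 0.621 in female WT NX, 0.667 in WT CIH, 2.24 in 5XFAD NX, with 2.25 in 5XFAD CIH, and of 0.299, 0.334, 1.05 and 1.04 in the male groups. It does not depend on how libraries are scaled.

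**Figure D5:**
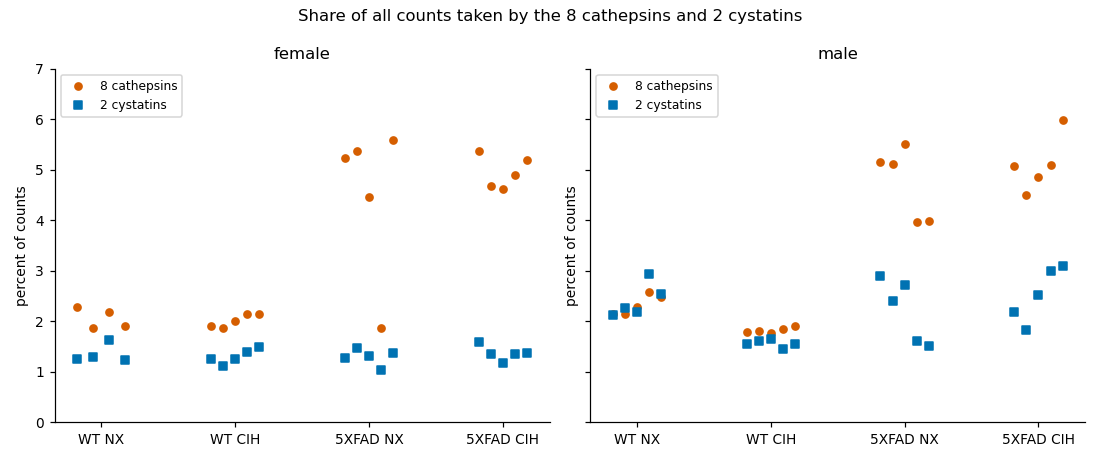
Share of all counts, in percent (y axis), of the 8 cathepsins and the 2 cystatins in every library by group (x axis), for both sexes. Cathepsin shares lie between 1.77% and 2.58% in WT libraries and reach 5.99% in 5XFAD, with the library labelled female 5XFAD NX 4 at 1.86%, while cystatin shares of the genotypes overlap in NX.

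The genes whose log2 CPM tracked a member most closely over the 19 female and the 20 male libraries were found by Pearson's r, as a description over libraries that share genotype groups and among 13442 genes tested in both sexes. For Cst7 they were Psat1 (r 0.994 in both sexes), Csf1 (0.994 in females and 0.995 in males) and St14 (0.993 in both). For Ctsb they were Apoe (0.997 and 0.994), Rtcb (0.992 and 0.994) and Hexa (0.996 and 0.992). Cst3 was tracked by Clic1 (0.926 and 0.977), Tm2d2 (0.911 and 0.965) and Rnf130 (0.905 and 0.934). Among the members, Ctsa and Ctsz ran closest together (0.996 and 0.998), Cst7 and Ctsb had 0.983 and 0.996, and Cst7 and Cst3 only 0.302 and 0.472. Over the 18 female libraries without 5XFAD NX 4 the female values were 0.993 to 0.995 for the genes named with Cst7, 0.994 to 0.997 for those with Ctsb and 0.829 to 0.870 for those with Cst3, and 0.228 between Cst7 and Cst3.

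Of 15 other cathepsins, 4 or 5 were expressed enough to be tested in each genotype comparison. Ctse, an aspartic protease like Ctsd, was higher in 5XFAD in all 4 comparisons, by 4.83 in female NX, 5.50 in female CIH, 4.81 in male NX and 5.04 in male CIH on the log2 scale. Ctsf, a papain-family member, was lower in female 5XFAD by both comparisons (log2FC -0.32 in NX and -0.47 in CIH). Of 24 other cystatins 2 or 3 could be tested. Cstb, a cystatin of the cytosol, rose in male 5XFAD by 1.28 in NX and 2.42 in CIH, and in female 5XFAD by 1.43 in CIH, with 0.61 (FDR 0.327) in NX.

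Of 10 processing and partner proteins, 2 rose in female NX, 8 in female CIH, 6 in male NX and 8 in male CIH, where 7.26%, 26.2%, 10.4% and 25.3% of all genes rose, and 7 rose in female NX without 5XFAD NX 4, where 21.8% of all did. Glb1 and Cd68 rose in all 4, Glb1 by 1.68, 1.77, 1.42 and 2.06 in that order, and Cd74, the substrate of Ctss, rose by 1.27 and 2.42 in males and by 2.01 in female CIH, with 1.84 (FDR 0.0694) in female NX. Tpp1, Lamp1 and Lamp2 rose in both male comparisons and in female CIH, and in female NX without the library labelled 5XFAD NX 4 (0.59, 0.88 and 0.79). Lgmn, which encodes the protease that processes several cathepsins, fell in female CIH (log2FC -0.29, FDR 0.00311) and in male NX (-0.43, FDR 0.0327). Psap, the most abundant of the list, had 0.11 and 0.15 in the NX comparisons, which did not pass, and 0.27 and 0.26 in CIH, which did.

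Among 10 serpins, another family of protease inhibitors, Serpina3n and Serpine2 rose and Serpinb8 fell in 5XFAD in all 4 comparisons, with Serpine2 at 1.67, 1.77, 1.60 and 1.93. Serpinb6a and Serpinb6b rose in both male comparisons and in female CIH, and in female NX without the library labelled 5XFAD NX 4 (1.04 and 2.06). Of 9 sorting receptors and enzymes, which carry cathepsins to the lysosome, 2, 7, 4 and 4 rose (6 in female NX without 5XFAD NX 4), against the same shares of all genes. Gnptab, whose product starts the mannose 6-phosphate tag, rose in all 4 (1.41, 1.63, 1.72 and 1.36). Sorl1 rose in both female comparisons (0.59 and 0.47) and in male NX. Gnptg (0.69 and 1.19) and M6pr (0.32 and 0.42) rose in both male comparisons and in female CIH. In female NX without the library labelled 5XFAD NX 4, Gnptg and M6pr rose by 0.61 and 0.34. Of 6 transcription factors of lysosomal genes, Tfe3 fell in 5XFAD in all 4 (-0.35, -0.38, -0.38 and -0.38). Mitf rose in both female comparisons (0.45 and 0.57) and in male NX. Spi1, the most abundant of them, had -0.25 (FDR 0.0604) and -0.17 (FDR 0.0413) in females and -0.40 (FDR 0.329) and 0.58 (FDR 0.0156) in males.

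Cell type markers also differed between genotypes. Tmem119, P2ry12, Cx3cr1 and Sall1, genes of resting microglia, were lower in 5XFAD in all 4 comparisons, with P2ry12 at -0.85, -1.07, -1.22 and -1.03, and border macrophage markers fell in 6 of 7, 6 of 7, 5 of 7 and 3 of 7, where 6.61%, 25.7%, 7.37% and 23.7% of all genes fell. In the same order, 1, 3, 3 and 1 of 7 astrocyte markers rose and 1, 1, 1 and 2 fell, and 0 of 5, 1 of 5, 3 of 6 and 2 of 6 oligodendrocyte markers rose, where 7.26%, 26.2%, 10.4% and 25.3% of all genes rose. Gfap, an astrocyte filament gene, was among those that rose in all 4, while Slc1a3, another astrocyte marker, fell in all 4. The oligodendrocyte marker Mag fell in both female comparisons. Against the same shares of all genes, 1 of 1, 1 of 2, 1 of 2 and 5 of 5 T and NK cell markers tested rose, with Klrb1c in all 4. Of 6 endothelial markers only Flt1 rose, in all 4, and none of either list fell. Klrb1c and Flt1 still rose in female NX without the library labelled 5XFAD NX 4. Of 10 genes that respond to cell isolation, 3, 2, 1 and 4 rose (5 in female NX without that library) and 3 fell in male NX. Without the library labelled 5XFAD NX 4, 1 astrocyte marker rose and 3 fell in female NX, and 1 oligodendrocyte marker rose and 1 fell. The part of these markers in the member results was not tested. Without the library labelled 5XFAD NX 4, the female NX log2FC was 5.13 for Ctse, -0.39 for Ctsf, 0.79 (FDR 0.0878) for Cstb, 1.92 for Glb1, 1.63 for Cd68, 2.12 for Cd74 and 0.20 (FDR 0.230) for Psap. It was 4.25 for Serpina3n, 1.90 for Serpine2, -1.41 for Serpinb8, 1.61 for Gnptab, 0.70 for Sorl1, -0.42 for Tfe3, 0.55 for Mitf, -0.23 (FDR 0.0225) for Spi1 and -1.02 for P2ry12, all at an FDR below 0.05 but for Cstb and Psap.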

How the data were processed

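Bulk RNA-seq was made from CD11b-selected cerebral cells of 39 mice (Illumina paired-end mRNA libraries). The authors deposited raw gene counts and FPKM values in one table per sex. Reads were aligned with HISAT2 to GRCm38/mm10, per the submitters' processing notes, and the counting program and annotation are not given in the sources used here. The 10 members were matched by symbol in each table, and the members, lists and tests were chosen with earlier results of these data known. Genes with a CPM above 1 in at least 3 of the libraries compared were kept, the study's filter, which all 10 members passed in every comparison. Pairs of groups within a sex, and the genotype by treatment interaction over the 4 groups of a sex, were fitted over all genes by edgeR 4.0.16 (TMM, quasi-likelihood test, Benjamini-Hochberg FDR) in R 4.3.3. The test within edgeR is not named by the study. DESeq2 1.42.0, limma 3.58.1 on log2(FPKM + 1) and log2(FPKM + 0.1), edgeR's likelihood ratio test, other filters and scalings, a replicate block and leaving out each library were alternatives. The count scripts were tested on simulated data.

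All members were named. Genes of other lists were named where their FDR was below 0.05 in the same direction in both genotype comparisons of a sex, or where they were the most abundant of their list. The other genes and values named were chosen after their values were seen. They are Cstb in females, Cd74 in females, Lgmn, Spi1 beside its level, the calls of other list genes in the sex that did not name them, and the cell type markers. Total counts set the precision: the lowest member, Cst7 in WT, was still counted in every library. Female FPKM values equal count over length and total, whereas male ones carry a further factor of 0.786 to 1.19 per library. Replicates were independent samples by the study's methods, and no 2 libraries of a group agreed within sampling noise (lowest chi-square per degree of freedom 4.59 over 76 pairs). The sources do not say which animals shared a litter or a day. The labels' oxygen level and daily hours differ from those in the study's methods, and the labels were followed.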

Additional observations from a re-analysis of the deposited data

Results flagged for a closer look

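The highest or lowest library of a group was compared with the rest by Dixon's ratio in all 80 groups of 1 gene, 1 sex, 1 genotype and 1 treatment, of which chance alone would single out about 4. It did so in 4. Cst7 in female 5XFAD CIH was lowest in replicate 2, at 1354.39 CPM, against 1829 in the next library. Ctsh and Ctss were lowest in the library labelled female 5XFAD NX 4, at 374.547 and 3677.97 CPM, against 665.6 and 7212 in the next. Ctsd in male 5XFAD CIH was highest in replicate 5, at 35546.4 CPM, against 24096 in the next. The same female 5XFAD NX library was at 14.9 CPM for Cst7.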

How the results depend on the processing

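Of 2080 values of single genes under an alternative, 1904 kept their direction and side of the threshold, 64 lost the call, 43 gained one and 69 turned in sign. The number of members called as DEGs in female WT NX vs 5XFAD NX (4) was 0 at an FDR below 0.01, 0 with a replicate block, 1 with limma at either pseudocount, and 0 to 6 when 1 library was left out. That in male WT NX vs WT CIH (0) was 9 on FDR alone and 0 to 1 when 1 library was left out. In the male interaction (0) it was 1 with DESeq2, 1 with the likelihood ratio test, 1 with no filter and 0 to 3 when 1 library was left out. The other 7 comparisons kept their number within 1.5 times under every alternative run. The cause was not tested. Replicate numbers do not pair the samples: over the 8 pairs of groups, same-numbered libraries had correlations of -0.49 to 0.35 and at most 2 of 4 or 5 libraries matched their own number best, and the block took the number from 4 to 0 only in female WT NX vs 5XFAD NX.

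Over all genes, DEGs in female WT NX vs 5XFAD NX were 869, against 7 at an FDR below 0.01, 7 with the block, 457 with limma (FPKM + 1) and 27 to 1880 with 1 library left out. In male WT NX vs WT CIH there were 376, against 0 with all 4 groups in one fit, 162 at an FDR below 0.01, 126 with limma (FPKM + 1), 639 with no filter, and 267 to 621 with 1 library left out (621 without WT NX 1). Male WT NX vs 5XFAD NX had 1224, against 708 with limma (FPKM + 1), and male and female WT CIH vs 5XFAD CIH had 2764 and 1932, against 1571 and 1020 with it. The male interaction had 0, against 308 with DESeq2, 175 with the likelihood ratio test, 790 with no filter and 478 without 5XFAD NX 1, and female WT NX vs WT CIH had 0, against 21 with no filter.

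Scaling by library totals alone moved the median log2FC of all genes to -0.17, -0.21, -0.16 and -0.43 in the genotype comparisons of female NX, female CIH, male NX and male CIH. Under it Cst3 turned to -0.11 in female CIH (limma -0.12 and -0.12), Ctsc to -0.081 in male NX, -0.13 in male CIH, -0.059 for CIH in male 5XFAD and -0.044 in the male interaction, and Ctss to 0.0047 for CIH in female 5XFAD. Near-zero values also turned: for CIH in female WT, Ctsa to -0.012 with no filter and -0.0025 with the block, and Ctsd to -0.015 and -0.011; for CIH in female 5XFAD, Ctss to 0.022 with the block and 0.016 and 0.016 with limma; and for CIH in male 5XFAD, Ctsc to -0.00057 with a 10-count filter. With male 5XFAD NX 4 and 5 both left out, Cst3 turned to 0.28 in male NX, and for CIH in male 5XFAD 9 genes turned: Cst3 -0.093, Cst7 -0.029, Ctsa -0.010, Ctsb -0.056, Ctsc -0.00074, Ctsd -0.035, Ctsl -0.054, Ctss -0.090 and Ctsz -0.080.

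With 1 library left out, log2FC that turned in sign ran, for genotype, from -0.12 to 0.048 for Cst3 in female NX and from -0.21 to 0.093 in male NX. For CIH in female WT it ran from -0.13 to 0.021 for Cst3, -0.017 to 0.038 for Ctsa, -0.19 to 0.0085 for Ctsb, -0.055 to 0.049 for Ctsd and -0.093 to 0.016 for Ctsz. For CIH in female 5XFAD it ran from -0.045 to 0.12 for Cst3, -0.10 to 0.44 for Cst7, -0.065 to 0.21 for Ctsa, -0.11 to 0.25 for Ctsb, -0.14 to 0.22 for Ctsd, -0.053 to 0.12 for Ctsh, -0.014 to 0.32 for Ctsl, -0.15 to 0.053 for Ctss and -0.049 to 0.28 for Ctsz. For CIH in male 5XFAD it ran from -0.0057 to 0.056 for Ctsc. In the female interaction it ran from -0.080 to 0.19 for Ctsa, -0.030 to 0.12 for Ctsc, -0.15 to 0.20 for Ctsd, -0.00065 to 0.16 for Ctsh, -0.045 to 0.15 for Ctss and -0.025 to 0.30 for Ctsz.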
